A study of Mus musculus with 3 samples.

Results

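The 10 genes described here act together in MHC class I antigen presentation: H2-K1, H2-D1, B2m, Tap1, Tap2, Tapbp, Psmb8, Psmb9, Psmb10 and Nlrc5. They were chosen by gene name among the 34796 gene names on the array, and all 10 were found, with 13 probes between them. Each was measured in RNA from mouse spleens that carried islet grafts, with 1 array for each of 3 time points. The spleens were of the C57BL/6J strain by the labels, and by the study's methods the recipients were male and had been made diabetic with streptozotocin, a toxin of the insulin-producing beta cells, before islets of the same strain were grafted. All recipients were given 25 islets in the spleen and 100 islets under the kidney capsule, by the protocol in the labels, although the sample labels name the kidney graft for the last spleen alone. Sample 1 was taken just after transplantation (day 0). Sample 2 was taken on day 2, and Sample 3 on day 139, from mice whose kidney graft had been removed by nephrectomy on day 100. The labels give neither the age at harvest nor how many mice an array stands for. Since the last spleen differed from the others in time, in age and in the nephrectomy, these cannot be told apart. With 1 array per group there was no replicate check and no test was possible, so each difference below compares these arrays and not the conditions.

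MHC class I molecules display short peptides from inside the cell to CD8 T cells and to receptors of natural killer cells. Peptides are cut by the proteasome, whose constitutive catalytic subunits can be replaced by the inducible subunits Psmb8, Psmb9 and Psmb10 to form the immunoproteasome. The transporter made of Tap1 and Tap2 carries the peptides into the endoplasmic reticulum, where Tapbp (tapasin) holds the transporter close to a heavy chain such as H2-K1 or H2-D1 bound to the light chain B2m. Nlrc5 is a transactivator that is brought to class I promoters by proteins bound to their X and Y boxes, and interferon gamma raises the expression of most of these genes. Lymphocytes of the spleen carry high levels of class I molecules.

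The promoters of the heavy chains and of B2m are shown because they hold the elements through which these genes are known to be controlled together. Whether these elements bear on the array signals was not tested. RefSeq promoter sequences of the GRCm38.p6 build were matched for 8 of the 10 members, and Tap2 and Nlrc5 had no entry. Each sequence gives the 250 bases before the annotated start, read 5′ to 3′ on the strand of the gene, and capitals mark matches to the motifs that were searched on both strands. H2-K1 lies at chr17:34000348-34000597 on the minus strand, H2-D1 at chr17:35262844-35263093 on the plus strand and B2m at chr2:122147437-122147686 on the plus strand.
H2-K1: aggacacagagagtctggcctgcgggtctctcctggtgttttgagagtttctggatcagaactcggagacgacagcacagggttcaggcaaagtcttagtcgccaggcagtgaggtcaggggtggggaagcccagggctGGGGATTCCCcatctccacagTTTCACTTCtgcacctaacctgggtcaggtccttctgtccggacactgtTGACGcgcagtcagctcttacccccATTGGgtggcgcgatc
H2-D1: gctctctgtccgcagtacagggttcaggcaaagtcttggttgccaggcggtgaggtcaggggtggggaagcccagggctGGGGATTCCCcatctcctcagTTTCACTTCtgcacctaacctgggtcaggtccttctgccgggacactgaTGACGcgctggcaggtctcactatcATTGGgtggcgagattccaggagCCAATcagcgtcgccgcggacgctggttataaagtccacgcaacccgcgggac
B2m: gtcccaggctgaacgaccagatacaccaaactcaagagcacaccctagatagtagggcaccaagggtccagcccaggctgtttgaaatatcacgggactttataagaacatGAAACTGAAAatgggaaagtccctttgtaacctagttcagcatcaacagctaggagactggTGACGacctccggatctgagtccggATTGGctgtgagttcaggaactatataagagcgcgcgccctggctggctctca
H2-K1 and H2-D1 shared 4 elements in the same order. The enhancer A core GGGGATTCCC came first, followed 21 bases later by TTTCACTTC, a match to the interferon response core GAANNGAAA on the opposite strand. TGACG, part of the X2 box, followed after another 49 bases, and the inverted CCAAT box ATTGG, the Y box, began 25 bases after the start of TGACG. Over the 100 bases from the enhancer core to ATTGG, the H2-K1 and H2-D1 promoters had the same base at 89 positions. The H2-D1 window held a further match, CCAAT, between 53 and 49 bases before the start, which the H2-K1 window shown does not contain, while that of another annotated H2-K1 start, 14 bases further along the gene, does. B2m had no enhancer A core and no match to GAANNGAAA, but it held the interferon-stimulated response element core GAAANNGAAA as GAAACTGAAA, and its TGACG and ATTGG were again 25 bases apart. Of all 32851 RefSeq promoter windows of this length, 28 held GGGGATTCCC, 2073 held GAANNGAAA, 978 held GAAANNGAAA, and 30 held TGACG and ATTGG at this distance in either orientation. H2-K1, H2-D1 and B2m were among these 30. The distance was searched after these promoters had been read, and a match describes the letters only.

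Tap1 and Psmb9 start back to back, and the whole stretch of 225 bases between their start sites is shown because both genes are read from it. It lies at chr17:34187331-34187555, written here on the plus strand, on which Tap1 is read.
Psmb9-Tap1: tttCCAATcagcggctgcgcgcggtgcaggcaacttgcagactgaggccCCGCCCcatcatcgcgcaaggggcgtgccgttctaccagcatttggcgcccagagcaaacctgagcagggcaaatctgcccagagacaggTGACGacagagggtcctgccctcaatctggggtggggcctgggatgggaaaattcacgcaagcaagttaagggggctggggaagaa
Capitals mark a CCAAT box next to the Psmb9 start, a GC box (CCGCCC, the reverse complement of GGGCGG) and TGACG. Such letters are common, since CCAAT was found in 33.9%, GGGCGG in 32.7% and TGACG in 17.8% of all windows. The Psmb8 window, at chr17:34197945-34198194 on the plus strand, held 1 match, TTCCCAGAA, to the gamma activated site TTCNNNGAA, which was found in 7.02% of all windows.
Psmb8: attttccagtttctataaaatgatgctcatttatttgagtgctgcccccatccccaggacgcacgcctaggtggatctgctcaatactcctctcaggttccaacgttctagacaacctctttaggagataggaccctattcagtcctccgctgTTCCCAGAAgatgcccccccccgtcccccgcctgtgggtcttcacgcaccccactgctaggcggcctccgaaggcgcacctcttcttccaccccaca
None of the 7 motifs was found in the Psmb10 window. Tapbp held 2 inverted CCAAT boxes and 1 GC box.

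All 10 genes gave their highest signal in Sample 3, and they were close to level between Samples 1 and 2. The median member was 1.34-fold higher in Sample 3 than in Sample 1 (log2 ratio 0.43, range 0.25 to 0.71) and 1.31-fold higher than in Sample 2 (log2 ratio 0.39, range 0.18 to 0.65). Between Sample 2 and Sample 1 the median log2 ratio was 0.08, with 7 members higher and 3 lower in Sample 2. Of all 32108 detected probes, 33.3% were highest in Sample 3, as were 35.3% of the 10043 detected probes at least as bright as the dimmest member. The medians of all detected probes in the same 3 comparisons were -0.02, -0.04 and 0.01. Signals are quantile-normalized fluorescence values on a linear scale, and a probe counts as detected where the scanner software called it well above background on at least 1 array. Each gene is read by its brightest detected probe. Because probes differ in their response, signals of different genes are not read as relative amounts of RNA. They are used together only to sort probes by brightness and, for the cell type markers, as sums.

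The size of these differences was modest. The study's methods called a gene at a ratio of at least 1.5 or at most 0.66 together with a Z-score beyond 2 or -2, and since no formula is stated, a probe's log2 ratio was expressed here in units of the SD over the 1000 probes closest to it in signal. Between Sample 3 and Sample 1, 3 of 10 members (Psmb8, Psmb9 and Nlrc5) reached a ratio of 1.5, beside 12.8% of all detected probes and 7.31% of those at least as bright as the dimmest member. None was at or below 0.66, where 14.7% of all detected probes were. Between Sample 3 and Sample 2, 1 of 10 members (Nlrc5) reached 1.5, beside 12.4% of all detected probes and 7.82% of the bright ones, and none was at or below 0.66, beside 14.4%. Between Sample 2 and Sample 1 no member passed either limit, beside 10.1% of all detected probes above, 10.4% below, and 3.87% of the bright probes above. No member passed both the ratio limit and the Z-score in any of the comparisons, where 4.72%, 4.16% and 4.46% of all detected probes did in either direction. The largest member Z-score was 1.24, that of Psmb8 between Sample 3 and Sample 1.

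All 13 member probes were well above background on every array, and no member spot was saturated. The scanner software's own error of a member's log2 ratio was 0.20 for each of the brightest probes, and it covers the reading of the spots, not the spread between spleens. It was nearly the same for all of them (0.2040 to 0.2043), so it acts here as a fixed limit. All 10 ratios of Sample 3 to Sample 1 were larger than this error and 7 were larger than 2 times it. Against Sample 2, 9 were larger than the error and 4 larger than 2 times it, while between Sample 2 and Sample 1 only 2 of 10, those of Tap2 and Psmb10, exceeded it. The share of all detected probes past this error was not computed, so these counts are no measure of precision and no result about the members. The SD of the log2 ratio of Sample 3 to Sample 1 was wider than this error. It was 0.84 over all detected probes and 0.60 over those at least as bright as the dimmest member.

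**Figure D1:**
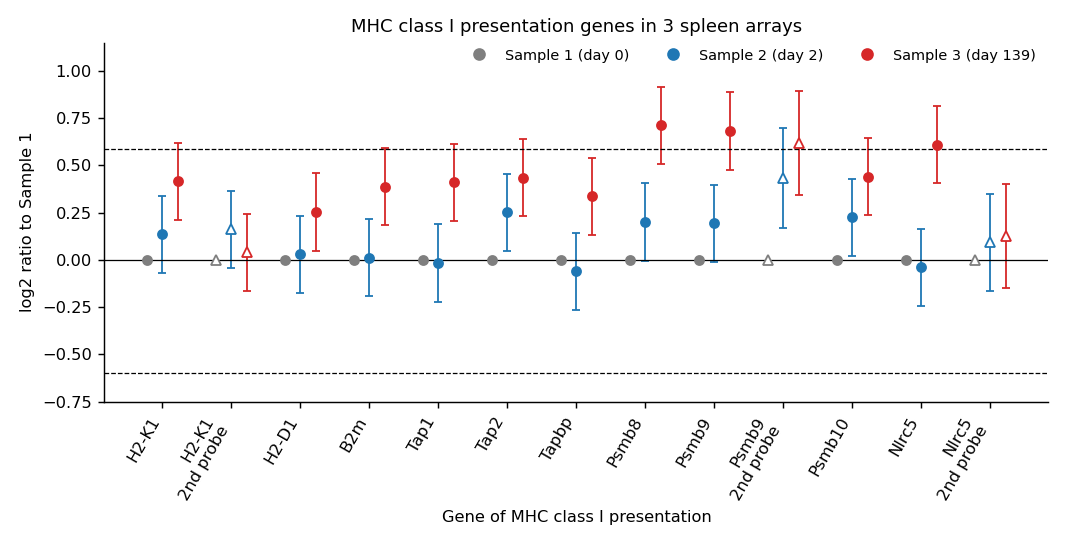
Log2 ratio of each member probe to its own signal in Sample 1, for Sample 1 (grey), Sample 2 (blue) and Sample 3 (red). Filled circles are the brightest probe of a gene, open triangles the second probe, bars the scanner software's error and dashed lines the ratio limits of 1.5 and 0.66. The filled red circles lie between 0.25 and 0.71, and Psmb8, Psmb9 and Nlrc5 lie above the upper limit.

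**Figure D2:**
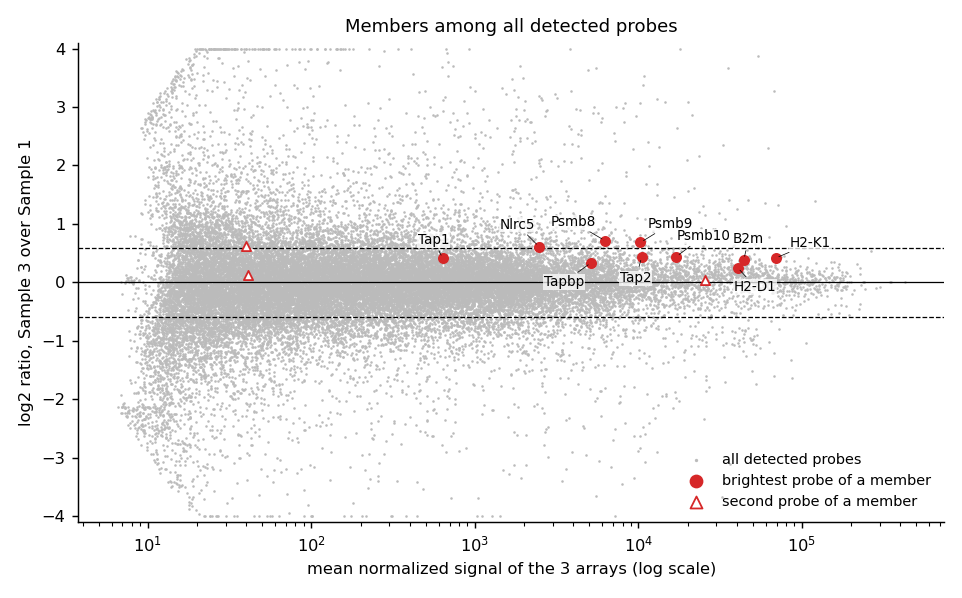
Log2 ratio of Sample 3 to Sample 1 against the mean normalized signal of the 3 arrays on a log scale, for the 32108 detected probes (grey, values beyond 4 drawn at 4) and the member probes (red). Dashed lines are the ratio limits. The filled circles lie above 0 over the whole range of signal, inside or at the edge of the grey cloud.

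Of the molecules that are displayed, H2-K1, a classical heavy chain, had normalized signals of 60271, 66170 and 80403 in Samples 1, 2 and 3. Its brightest probe was printed as 10 spots, of which 8 were kept on the array of Sample 3, and the SD over spots was 0.04, 0.13 and 0.05 on the log2 scale for Samples 1 to 3. Sample 3 stood highest, 1.33-fold above Sample 1 (log2 ratio 0.42) and 1.22-fold above Sample 2 (log2 ratio 0.28). H2-D1, the other classical heavy chain measured, gave 37720, 38524 and 44973. Its ratio of 1.19 between Sample 3 and Sample 1 (log2 ratio 0.25) was the smallest of the members. B2m, the light chain shared by all class I heavy chains, gave 39893, 40208 and 52185 in Samples 1, 2 and 3. Samples 1 and 2 were level for B2m (log2 ratio 0.01), and Sample 3 was 1.31-fold above Sample 1. In bulk tissue, fewer or more cells of a type and less or more RNA per cell cannot be told apart for any of these signals.

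The probes of the heavy chains did not all behave alike. A second H2-K1 probe for the same transcript, printed once, gave 24490, 27399 and 25186 in Samples 1, 2 and 3, so that its highest sample was Sample 2. Its log2 ratio of Sample 3 to Sample 1 was 0.04 with a software error of 0.20, against 0.42 for the brightest probe of the gene, and its log2 ratio of Sample 3 to Sample 2 was -0.12. The brightest probe lies at chr17:34133055-34133114 and the second at chr17:34133984-34134043, both on the minus strand of the mm9 build. The sequence of the second probe is shown because the H2-K1 result depends on which probe is read, and no base is in capitals.
H2-K1 second probe: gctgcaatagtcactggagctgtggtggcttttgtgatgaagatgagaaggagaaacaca
Heavy chain genes are close copies of each other. When each probe was slid along the probes of the other H2 genes by up to 20 bases, the second H2-K1 probe shared at most 39 of its 60 bases, with a probe of H2-T23, while the brightest H2-K1 probe shared at most 26 and the H2-D1 probe at most 27. Only probes were compared, not whole transcripts, so a low count does not show that a probe is specific to its gene. Binding of transcripts of other heavy chains to these probes was not tested.

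The remaining heavy chains and class I-like molecules were read from a list of 26 genes, of which 19 were detected. Of these, 16 were higher and 3 lower in Sample 3 than at day 0 (median log2 ratio 0.36). H2-T10, H2-M3 and H2-M2 reached the ratio of 1.5, and none was at or below 0.66. H2-T10, a nonclassical heavy chain, had the largest ratio, with signals of 567, 764 and 991 in Samples 1, 2 and 3 (log2 ratio of Sample 3 to Sample 1 of 0.80). H2-Q4 had the smallest, with 29834, 19871 and 22018, which put Sample 1 highest (log2 ratio -0.44). Against Sample 2, 17 of the 19 were higher in Sample 3, with a median log2 ratio of 0.37 and 4 at or above the ratio of 1.5.

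Among the genes of peptide transport and loading, Tap1, which forms the transporter with Tap2, gave 575 in Sample 1, 569 in Sample 2 and 765 in Sample 3. Its 10 spots had an SD between 0.04 and 0.05 on the log2 scale on each array, and the spots ranged from 568 to 636 in Sample 1, from 564 to 620 in Sample 2 and from 666 to 721 in Sample 3 before normalization, so that the spots of Sample 3 did not overlap those of the others. These spots repeat the reading of 1 RNA sample and are no replicates. H2-K1 was also printed as 10 spots. Its kept spots ranged from 58014 to 64855 in Sample 1, from 53713 to 74968 in Sample 2 and from 72924 to 80692 in Sample 3. There the spots of Samples 2 and 3 overlapped. How many other probes had separate spot ranges was not counted. For Tap1 the log2 ratio of Sample 3 was 0.41 to Sample 1 and 0.43 to Sample 2. Tap2 gave 8871, 10572 and 12000. Its difference was spread over both intervals, with a log2 ratio of 0.25 between Sample 2 and Sample 1, the largest of the members in that comparison, and 0.18 between Sample 3 and Sample 2, the smallest. Tapbp gave 4783, 4591 and 6043, with Sample 2 lowest and Sample 3 1.26-fold above Sample 1 (log2 ratio 0.34).

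Other genes of loading and trimming were nearer to level. All 12 genes of this list were detected. Their median log2 ratio of Sample 3 to Sample 1 was 0.07, and 0 reached the ratio of 1.5 while 1 was at or below 0.66. Tapbpl, a relative of tapasin that edits peptides on class I molecules, was the highest (532, 609 and 769, log2 ratio 0.53). Thop1, a peptidase of the cytosol, was the lowest (317, 342 and 184, log2 ratio -0.78). Between Sample 3 and Sample 2 the median of the list was 0.01.

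The inducible proteasome subunits Psmb8 and Psmb9 had the largest ratios of the members between Sample 3 and Sample 1. Psmb8 had signals of 4954, 5693 and 8119 in Samples 1, 2 and 3. Sample 3 was 1.64-fold above Sample 1 (log2 ratio 0.71) and 1.43-fold above Sample 2 (log2 ratio 0.51). Psmb9 gave 8235, 9423 and 13218, with Sample 3 1.61-fold above Sample 1 (log2 ratio 0.68) and 1.40-fold above Sample 2 (log2 ratio 0.49). Psmb10 gave 14488, 16947 and 19649, and its ratio of 1.36 between Sample 3 and Sample 1 (log2 ratio 0.44) stayed below the limit. Its ratio of 1.16 between Sample 3 and Sample 2 (log2 ratio 0.21) was among the smallest of the members, above only that of Tap2. For each of them Sample 2 lay between the others, with log2 ratios to Sample 1 of 0.20, 0.19 and 0.23. The probes behind the highest ratios are shown, read on the strand of the gene, at chr17:34337771-34337830 on the plus strand for Psmb8 and at chr17:34319174-34319233 on the minus strand for Psmb9 in mm9, with no base in capitals.
Psmb8 probe: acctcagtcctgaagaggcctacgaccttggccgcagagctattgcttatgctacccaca
Psmb9 probe: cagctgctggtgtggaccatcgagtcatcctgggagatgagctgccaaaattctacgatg
A second Psmb9 probe, designed to another transcript, was dim but agreed in direction (31, 41 and 47 in Samples 1, 2 and 3, log2 ratio of Sample 3 to Sample 1 of 0.62 with a software error of 0.28).

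Each inducible subunit takes the place of 1 constitutive subunit in the proteasome core, and the constitutive subunits were nearer to level. Psmb5, which Psmb8 replaces, gave 28450, 28857 and 24919, with a log2 ratio of Sample 3 to Sample 1 of -0.19. Psmb6, which Psmb9 replaces, gave 15128, 16478 and 15893 (log2 ratio 0.07). Psmb7, which Psmb10 replaces, gave 2124, 2303 and 2001 (log2 ratio -0.09). A common factor of an array cancels in the difference between the log2 ratios within a pair. Quantile normalization acts by signal level, so its effect need not cancel between subunits of unlike signal. The difference was 0.90 for Psmb8 and Psmb5, 0.61 for Psmb9 and Psmb6, and 0.53 for Psmb10 and Psmb7, each with a software error of 0.29. Between Sample 3 and Sample 2 the differences were 0.72, 0.54 and 0.42, and between Sample 2 and Sample 1 they were 0.18, 0.07 and 0.11, below the software error. Over the 14 genes of the standard proteasome core, 5 were higher and 9 lower in Sample 3 than in Sample 1, the median log2 ratio was -0.05 and 0 passed either ratio limit. The extremes were Psmb1 (log2 ratio 0.15) and Psma6 (log2 ratio -0.27). Psma6 was low in Sample 2, at 1392 against 3423 in Sample 1 and 2842 in Sample 3.

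**Figure D3:**
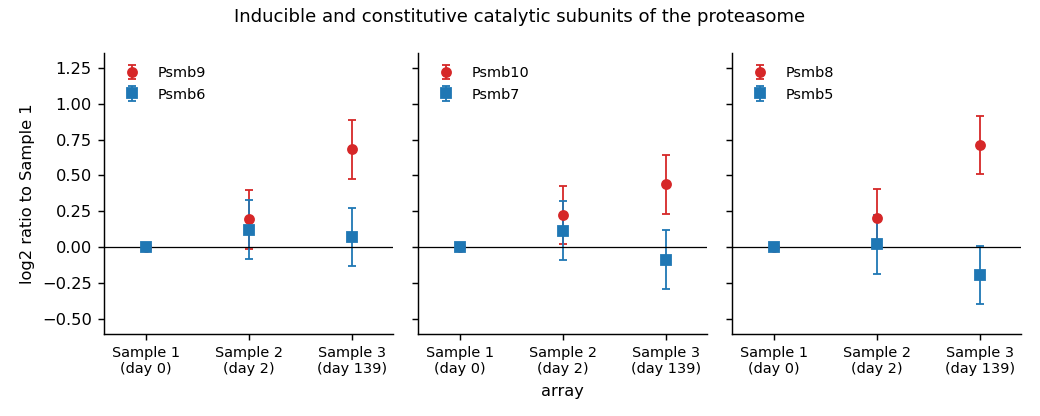
Log2 ratio to Sample 1 of each inducible proteasome subunit (red circles) and of the constitutive subunit it replaces (blue squares) on the 3 arrays, with the scanner software's error as bars. In Sample 3 the inducible subunits lie at 0.68, 0.44 and 0.71, and the constitutive ones at 0.07, -0.09 and -0.19.

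Nlrc5, the transactivator of class I genes, gave 2117, 2062 and 3233 in Samples 1, 2 and 3. Samples 1 and 2 were level (log2 ratio -0.04), and Sample 3 was 1.53-fold above Sample 1 (log2 ratio 0.61) and 1.57-fold above Sample 2 (log2 ratio 0.65), the largest ratio of a member to Sample 2. Nlrc5 stood just above the ratio limit of 1.5 in both comparisons. Its second probe was dim and nearly level (39, 42 and 43, log2 ratio of Sample 3 to Sample 1 of 0.13 with a software error of 0.27). That probe maps to chr8:97030478-97030624 in mm9, a span of 147 bases for a probe of 60, while the brightest probe lies at chr8:97051105-97051164, further along the plus strand. With the median of both probes in place of the brightest, Nlrc5 had a log2 ratio of 0.37 to Sample 1 and 0.34 to Sample 2, and it no longer reached the limit.

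Of 19 other regulators and genes of the interferon gamma pathway, all were detected, and 13 were higher and 6 lower in Sample 3 than in Sample 1 (median log2 ratio 0.10). The ratio of 1.5 was reached by Irf8, a transcription factor of B cells and myeloid cells, and by Rfx5, which binds the X box. Irf8 gave 9936, 9043 and 15366 (log2 ratio 0.63), the largest among probes well above background on all arrays, and Nfyb, a subunit of the factor that binds CCAAT boxes, had the smallest log2 ratio, at -0.40. The Rfx5 probe was dim (12.1, 21.4 and 36.9) and not well above background in Sample 1. Its signal in Sample 3 was 2.85-fold the lowest signal well above background on the array of Sample 1 (12.9). This is no firm lower bound, since the software error of its log2 ratio to Sample 1 was 0.40. Ifng, the cytokine itself, gave 148, 119 and 207, with log2 ratios of Sample 3 of 0.49 to Sample 1 and 0.80 to Sample 2. Irf1, which binds interferon response elements, gave 10292, 8616 and 11544 (log2 ratio to Sample 1 of 0.17). Between Sample 3 and Sample 2 the median of the list was 0.32, with 3 genes at or above the ratio of 1.5.

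Interferon-stimulated genes outside antigen presentation lay on both sides of 0. Of 25 such genes, 12 were higher and 13 lower in Sample 3 than in Sample 1. Their median log2 ratio was -0.04, and 0 reached the ratio of 1.5 while 2 were at or below 0.66. Gbp3, a guanylate-binding protein, was the highest (log2 ratio 0.52) and Oas2, an antiviral enzyme, the lowest (log2 ratio -0.69). Between Sample 3 and Sample 2 their median was 0.14. MHC class II genes were higher in Sample 3 in 11 of 11 cases, with a median log2 ratio of 0.60 and 7 at or above the ratio of 1.5. They ran from H2-Ab1 (log2 ratio 0.41) to H2-Ob (log2 ratio 1.29), both subunits of class II or class II-like molecules found on B cells. The difference between these lists and the members could not be tested with 1 array per group.

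Genes for receptors that read class I molecules lay on both sides of 0. Of 8 detected, 4 were higher and 4 lower in Sample 3 than in Sample 1 (median log2 ratio -0.01). Cd8a, the coreceptor of cytotoxic T cells, was the highest (212, 253 and 362, log2 ratio 0.77), and Klra1, an inhibitory receptor of natural killer cells, the lowest (5600, 3293 and 2777, log2 ratio -1.01).

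**Figure D4:**
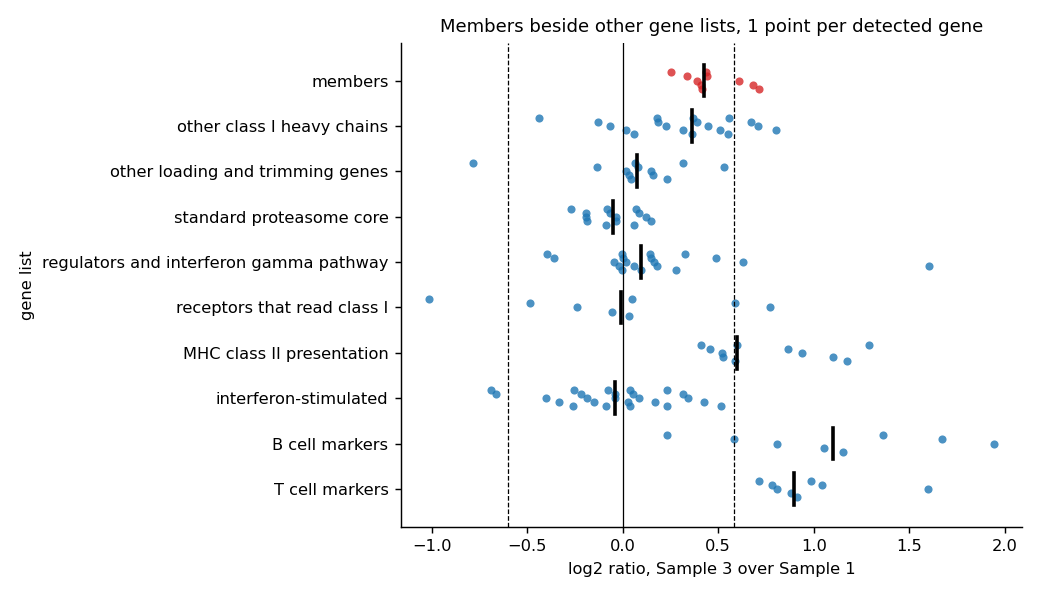
Log2 ratio of Sample 3 to Sample 1 for the members (red) and for the genes of 9 other lists (blue), with 1 point per detected gene, each list's median as a black bar and the ratio limits dashed. The members lie to the right of 0, their median at 0.43, while the standard proteasome core and the interferon-stimulated genes are centred near 0 and the MHC class II, B cell and T cell lists lie further to the right.

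Markers of B cells and T cells were higher in Sample 3 too. B cell markers were higher in Sample 3 than in Sample 1 in 8 of 8 cases (median ratio 2.15, 6 at or above the ratio of 1.5), and their summed signal was 47164, 46770 and 87986 in Samples 1, 2 and 3. T cell markers were higher in 8 of 8 cases (median ratio 1.86, 8 at or above the limit), with summed signals of 13831, 18397 and 25574. Natural killer cell markers were higher in 2 and lower in 3 of 5 cases (median log2 ratio -0.35), with summed signals of 12496, 8634 and 7679, mostly those of Gzma. Macrophage markers were higher in 2 and lower in 6 of 8 cases (median -0.33), with summed signals of 115802, 89303 and 95943. Erythroid markers were lower in 9 of 11 cases, 5 of them at or below 0.66 (median -0.53). Their summed signals of 867055, 912137 and 839707 were set mostly by Hba-a1 and Hbb-b1, which lay at the top of the normalized scale and had equal values in Samples 1 and 3. Dendritic cell markers were higher in 5 of 6 cases (median 0.21), while their summed signals of 86839, 81971 and 79353 were mostly those of Siglech, the 1 that was lower. Neutrophil markers were higher in 6 and lower in 3 of 9 cases (median 0.11), but the 3 lower ones, S100a8, S100a9 and Retnlg, had log2 ratios of -1.80, -1.33 and -3.64 and made up most of the summed signals of 225533, 79951 and 91370. All markers of these lists that were detected were well above background on all 3 arrays. Islet markers had summed signals of 63622, 107299 and 33161 (10 genes), highest in Sample 2. Of 6 exocrine pancreas markers, 5 were higher in Sample 3 than in Sample 1, and 4 of the 6 were not well above background in Samples 1 and 2. Their summed signals of 910, 681 and 1208 were mostly those of Cela1 in Samples 1 and 2 (870, 599 and 603 in Samples 1, 2 and 3), while Amy2a5 gave 21.3, 43.4 and 404. Endothelial markers were higher in 1 and lower in 4 of 5 cases (median log2 ratio of Sample 3 to Sample 1 of -0.19). Tlx1 and Nkx2-5, transcription factors of the spleen stroma, were well above background on all arrays. In Samples 1, 2 and 3, Tlx1 gave 520, 464 and 390 and Nkx2-5 gave 488, 946 and 415. Both were lower in Sample 3 than in Sample 1 (log2 ratios -0.42 and -0.23). The part of these cell types in the member ratios was not tested.

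By position, 7 of the members lie on chromosome 17 in the MHC region, in the order Tapbp, H2-K1, Psmb9, Tap1, Psmb8, Tap2 and H2-D1, over 1338 kb of mm9 (chr17:34065963-35403945). Psmb9, Tap1, Psmb8 and Tap2 lie within 34.0 kb, and no probe of another detected gene fell between their outermost probes. B2m is on chromosome 2, and Psmb10 and Nlrc5 are on chromosome 8. Of the 73 other detected genes between the outermost members, 16 reached the ratio of 1.5 between Sample 3 and Sample 1, 5 were at or below 0.66, and the median log2 ratio was 0.11. Of all detected probes, 12.8% reached 1.5 and 14.7% were at or below 0.66 in this comparison. Genes of the lists above, such as those of MHC class II, were not taken out of these 73. The members outside this region had log2 ratios of 0.39, 0.44 and 0.61, within the range of those inside.

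The median pair of log2 ratios of the members was 0.08 for Sample 2 to Sample 1 and 0.43 for Sample 3 to Sample 1, and the median member lay 0.17 away from it. Of 7889 probes of other genes with a mean signal of at least 500, 418 lay as near or nearer, or 5.30%. The 5 nearest genes by this distance over 3 samples were Bri3, Clec1b (a receptor of platelets), Zfp932, Npr2 (a natriuretic peptide receptor) and H2-Ab1, at distances from 0.01 to 0.02. H2-Ab1, the class II beta chain, gave 96907, 102528 and 128812 in Samples 1, 2 and 3.

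Of the alternatives tried, the scaling to spike-in probes moved the member ratios most. Before any scaling, 10 of 10 members were brighter in Sample 3 than in Sample 1 and 8 of 10 brighter than in Sample 2. The share of all detected probes that were brighter in Sample 3 before scaling was not counted, so these counts cannot be set against the array as a whole. Under scaling to the 8 spike-in probes, control RNAs added in known amounts whose signal in Sample 3 was 66.3% of that in Sample 1, the median member had a log2 ratio of 0.84 to Sample 1 and all 10 reached the ratio of 1.5. The median of all detected probes was then 0.34 instead of -0.02, and 29.6% of them reached 1.5. Relative to all detected probes, the median member stood 0.45 higher under quantile normalization and 0.50 higher under the spike-in scaling.

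**Figure D5:**
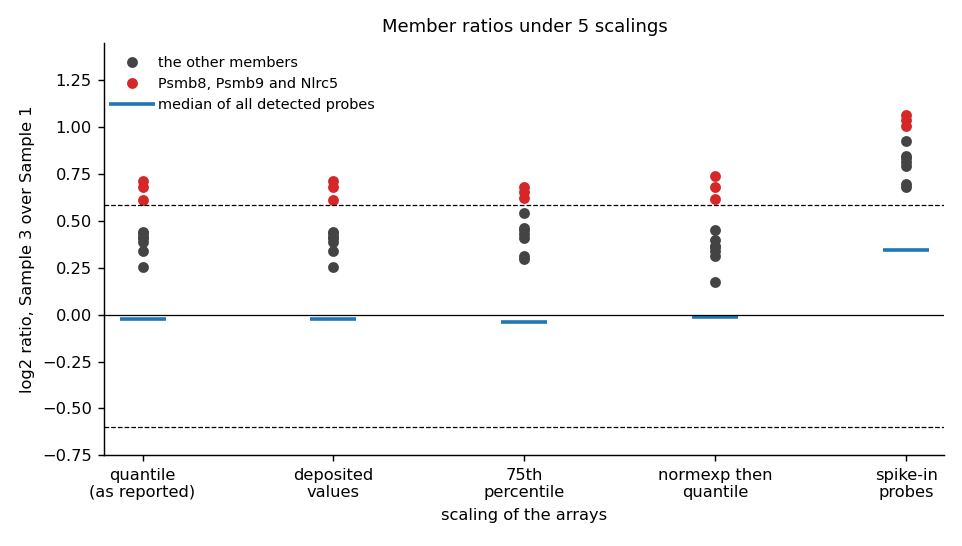
Log2 ratio of Sample 3 to Sample 1 for each of the 10 members under 5 ways of scaling the arrays, with Psmb8, Psmb9 and Nlrc5 in red, the other members in dark grey and the median of all detected probes as a blue bar. The members lie above that bar in every column, and under the spike-in scaling both shift upwards, the bar to 0.34.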

How the data were processed

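Total RNA of 3 spleen samples was labelled with Cy3 and hybridized to 3 arrays of 1 slide, each with 62976 spots of probes of 60 bases. The deposited scanner files hold intensity values that the authors obtained with Agilent Feature Extraction (9.5.1.1 by the submitters' processing notes, 10.7.1.1 per the file headers), with the background subtracted. The authors also deposited 1 intensity value per probe, quantile normalized over the arrays (medians 22.0 in each sample), on the same linear scale. Member signals computed here differed from these by at most 0.122%.

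Here, control spots and spots flagged as outliers were left out, spots of a probe were averaged, and the 3 arrays were quantile normalized, as in the study's methods, with numpy 2.4.6, pandas 2.3.3 and matplotlib 3.10.9 under Python 3.11.15. Values were floored at 1 and taken to the log2 scale. Of 55679 probes, 50.4% to 54.4% were well above background on an array and 32108 on at least 1. The number of arrays limits the precision, and no test was run. The calculation was run on simulated data with larger changes than those of the members, so that run does not bear on changes of their size. Alternatives were scaling to the 75th percentile or to spike-in probes, the deposited values, normexp (limma 3.58.1 in R 4.3.3, offset 50), other floors, filters and Z-score windows, and a ratio limit of 2 or 0.5. All members were named with every probe. From each of the 7 comparison lists, but not from the cell type marker lists, the genes with the largest and smallest log2 ratio of Sample 3 to Sample 1 among probes well above background on all arrays were named, with Irf1, Ifng, Psmb5, Psmb6 and Psmb7, and the 5 genes with the nearest pattern. 1 other gene of this rule is not reported here. Rfx5, H2-M2, H2-M3 and the cell type markers given by name were named after their values were seen. The members and lists were chosen with earlier results of these data known. Gene names are those of the array. Probe positions are on mm9 and promoters on GRCm38.p6, and whether a probe lies in an exon, an intron or an untranslated region was not analysed here.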

Additional observations from a re-analysis of the deposited data

How the results depend on the processing

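No paired analysis was possible because each group holds 1 array, and for the same reason no replicate could be left out. Under scaling to the spike-in probes the members' median log2 ratio of Sample 3 was 0.84 to Sample 1 and 0.80 to Sample 2. The ratio limit was passed by 10 and 8 members, beside 29.6% and 32.9% of all detected probes at or above 1.5. In each comparison 1 member passed the Z-score as well, and the share of all detected probes that did was not counted. This scaling multiplies each array by 1 factor, and it moved the median of all detected probes to 0.34 and 0.38. The Z-score was not centred on that median, so it shifted upwards too. With a scaled median absolute deviation in the Z-score, a measure that gives less weight to probes with large ratios, 2 members passed both limits between Sample 3 and Sample 1. The share of all detected probes that passed with this measure was not counted, so these 2 are no result about the members. With a ratio limit of 2 or 0.5, 0 members passed in either comparison with Sample 3. Of all detected probes, 6.05% were above and 6.94% below these limits against Sample 1, and 5.88% and 6.20% against Sample 2. Where a gene was read by the median of all its detected probes, 0 members passed the ratio limit between Sample 3 and Sample 2. Of all detected probes, 12.4% were at or above 1.5 in that comparison. Of 270 values of single genes under the alternatives, 248 moved by less than the software's error of the ratio, 20 moved by more under spike-in scaling and 2 elsewhere, both of Nlrc5, and 0 changed sign among the values past the limit. The medians and counts not named here stayed within that error or within 1.5 times. All members were well above background, so signal over background did not limit their values, except for the second probes of Psmb9 and Nlrc5.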
